A study of Mus musculus with 6 samples.

Results

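Cytochrome P450 enzymes of families Cyp1 to Cyp4 and the enzymes that conjugate glucuronic acid (Ugt), sulfate (Sult) or glutathione (Gst) were followed in RNA of kidney glomeruli, the filtering units of the kidney. The genes were taken by name: a symbol starting with Cyp1, Cyp2, Cyp3 or Cyp4, Ugt1, Ugt2, Ugt3, Sult or Gst, without the steroid, vitamin and sterol P450s of other families and without Cyp2c23. Of 143 such rows among 27179, 61 had a mean of at least 10 normalised counts over the 6 libraries and entered the analysis. They were 29 of 80 P450 genes, 11 of 20 Ugt genes, 4 of 21 Sult genes and 17 of 22 Gst genes. The other 82 lay below the minimum, and 38 of them had no read in any library. Just inside the minimum stood Cyp4f14 and Cyp4f18, at means of 10.1 and 12.6, and just outside it Gstm6 and Ugt2a3, at 9.65 and 8.84. In 6 of the 61 (Cyp2f2, Cyp4f14, Sult1b1, Ugt1a6a, Ugt1a6b and Ugt1a9) the WT mean was below 10, so that they reached the minimum only through KO. No gene had a KO mean below 10.

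The 6 libraries came from male mice of 9 weeks on a mixed C57BL/6 background that the labels describe as mildly proteinuric. In 3 KO mice (KO-1 to KO-3) both Parva alleles were floxed and the hNPHS2Cre transgene, Cre under the human podocin promoter, was present, so that deletion is directed to podocytes. The 3 WT mice (WT-1 to WT-3) were also Parva-fl/fl and carried no Cre in their label. No group with Cre alone is among the samples used here. The Parva product, alpha-parvin, links integrin-linked kinase to actin filaments. Glomeruli were collected by perfusion with magnetic beads and lysed whole, so each library holds RNA of podocytes, endothelial and mesangial cells and of any tubule that came with them.

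P450 enzymes are haem proteins of the endoplasmic reticulum that insert oxygen into drugs, toxins, steroids and fatty acids, using electrons from cytochrome P450 reductase. Conjugating enzymes then attach glucuronic acid, sulfate or glutathione, which makes the product soluble, and efflux transporters carry it out of the cell. In the kidney this machinery is known mainly from the proximal tubule, and several mouse renal P450 and conjugating genes depend on androgen.

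Whole reads recovered from the deposited values numbered 11886828 to 20015813 in the KO libraries and 14456490 to 20552984 in the WT libraries. Of these, 10 genes, each at 30 times or more of its next highest level in a single library, took 0.239% to 28.5% in KO and 17.4% to 32.4% in WT. None of the 61 genes is among them. Parva itself had 2288, 2338 and 1942 normalised counts in the KO libraries, against 6585, 7520 and 7890 in the WT libraries (log2 fold change -1.74 with SE 0.12, adjusted p = 0.0106 in limma, and 0.0793 without WT-2 and 0.0533 without WT-3). Podocyte markers were abundant in every library, with a summed level of 129184 to 189860 normalised counts in KO and 202111 to 257676 in WT. Over all 13946 genes tested, 13.5% were called higher in KO and 8.58% lower. Of the 8 podocyte, 9 endothelial and 5 mesangial markers, 3, 8 and 5 were called lower in KO. Of 24 proximal tubule markers, 22 were called higher in KO and none stood at 0 in any group. Their summed level was 316263 in KO-1, 433285 in KO-2 and 483082 in KO-3, against 272840 in WT-1 and 123873 and 122520 in the other WT libraries. WT-1 was therefore the WT library nearest to the KO libraries, and it was the highest WT library in 24 of 24 of these markers. Of 10 markers of the distal tubule and collecting duct, 2 were called higher in KO and none lower. Their median log2 fold change was nevertheless 1.34, against 1.53 in the proximal tubule markers. WT-1 was the highest WT library in 10 of 10 of them. None of 6 leukocyte markers was called. Their summed level was 3971 in KO-3, against 1111 in KO-1, 843 in KO-2 and 693 to 1016 in WT. Among the hepatocyte markers, Ttr was the 1 gene called of 3 tested, and albumin stayed at 23.8 to 30.1 normalised counts in KO and 13.9 to 20.6 in WT.

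Promoter windows are shown for 3 genes on which the results below turn. Cyp1b1 kept the size of its difference when the proximal tubule markers were taken into account, and Cyp2a5 and Cyp2a4 are close copies of which 1 was called. The windows run from 250 bases before to 50 bases after the start of the RefSeq gene (GRCm38.p6, the build of the deposited data) and are written 5′ to 3′ on the strand of the gene, and 48 of the 61 genes had at least 1 (59 windows in all). Capitals mark GCGTG, the core that the aryl hydrocarbon receptor complex is known to bind, in Cyp1b1, and TATAAA, the TATA box, in Cyp2a5 and Cyp2a4, each read on both strands. The windows are chr17:79715012-79715311 on the minus strand for Cyp1b1, and on the plus strand chr7:26835089-26835388 for Cyp2a5 and chr7:26306942-26307241 for Cyp2a4.
Cyp1b1: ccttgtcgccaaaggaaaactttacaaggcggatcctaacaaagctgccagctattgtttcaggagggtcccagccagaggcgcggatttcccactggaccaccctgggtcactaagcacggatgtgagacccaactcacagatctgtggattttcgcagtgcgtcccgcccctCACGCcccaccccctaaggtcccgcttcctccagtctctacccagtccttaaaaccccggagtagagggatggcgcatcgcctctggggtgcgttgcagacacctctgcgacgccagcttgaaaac
Cyp2a5: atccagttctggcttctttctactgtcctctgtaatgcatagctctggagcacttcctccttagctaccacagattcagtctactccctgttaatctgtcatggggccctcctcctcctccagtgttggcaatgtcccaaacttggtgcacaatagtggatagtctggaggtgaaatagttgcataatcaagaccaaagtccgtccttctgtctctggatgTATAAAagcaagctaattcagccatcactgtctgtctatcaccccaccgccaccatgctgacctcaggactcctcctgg
Cyp2a4: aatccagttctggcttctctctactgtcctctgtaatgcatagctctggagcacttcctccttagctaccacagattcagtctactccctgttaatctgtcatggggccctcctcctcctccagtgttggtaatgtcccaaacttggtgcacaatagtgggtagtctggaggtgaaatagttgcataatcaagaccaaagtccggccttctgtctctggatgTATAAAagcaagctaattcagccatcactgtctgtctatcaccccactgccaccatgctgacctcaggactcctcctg
The Cyp2a5 and Cyp2a4 windows were identical at 294 of 299 aligned bases (98.3%), and the TATA box began 29 and 28 bases before their starts. The windows of Ugt1a10 and Ugt1a9, which are not printed, were identical at 227 of 277 aligned bases (81.9%).

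The TATA box letters TATAAA were in a window of 12 of the 48 genes (25.0%), against 9.16% of 10838 genes tested that had a window. Among the 26 genes with a window that were called higher in KO, 9 held them, and among the 22 that were not called, 3 did. The core GCGTG was in 13 of 48 (27.1%), below the 54.5% of the genes tested, and TGACNNNGC, the antioxidant response element, in 6 of 48 (12.5%), against 17.0%. The HNF4 letters CAAAGTCCA were found in 1 gene of the 48, against 0.517% of the genes tested. These motifs were searched on both strands. A match describes the letters in the window and says nothing of whether a factor is bound.

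Genes of all 4 enzyme families were higher in the KO libraries, and none was called lower. Of the 61 genes, 34 passed a limma adjusted p of 0.05 with a higher level in KO, where 13.5% of all 13946 genes tested did so and 22.1% were called in either direction. No gene of the 61 was called lower, against 8.58% of all genes, and 27 were not called in either direction. Among the 55 genes with a WT mean of at least 10, 29 rose. By family, 13 of 29 P450 genes, 9 of 11 Ugt genes, 3 of 4 Sult genes and 9 of 17 Gst genes rose. The median log2 fold change, KO over WT, was 1.32 over the 61 genes and -0.006 over all genes tested. It was 1.10 in the P450 genes, 2.15 in the Ugt genes, 1.68 in the Sult genes and 0.68 in the Gst genes. In 37 of the 61 the KO mean was at least 2 times the WT mean, against 10.2% of all genes. A difference in such bulk samples may come from more or fewer cells of a type or from more or less RNA per cell, which cannot be told apart.

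**Figure D1:**
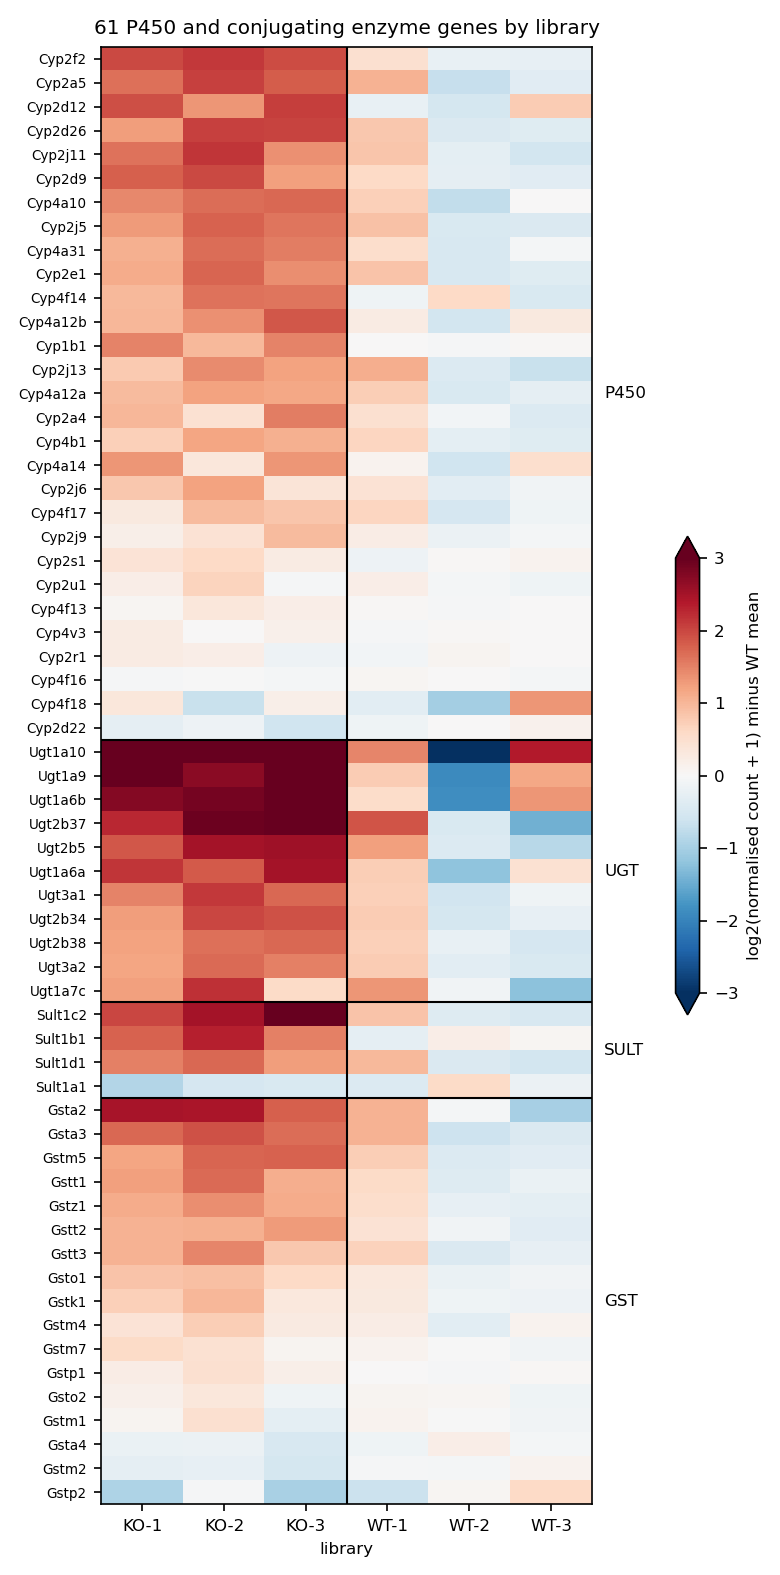
Each row is 1 of the 61 genes, grouped by enzyme family, and each column a library, KO on the left and WT on the right; colour gives log2(normalised count + 1) minus the mean of the WT libraries. Within WT the column of WT-1 is the highest in 42 of the 61 rows, against 37.1% of all genes tested. All KO columns lie above all WT columns in 17 of 29 P450 and 10 of 11 Ugt rows, against 23.2% of all genes. The 17 and 10 include 2 P450 and 3 Ugt genes that reached the minimum only through KO.

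The summed level of the 61 genes was 93660 normalised counts in KO-1, 124741 in KO-2 and 110563 in KO-3, against 74677 in WT-1 and 40290 and 38887 in the other WT libraries. The groups did not overlap, but WT-1 lay nearer to KO-1 than to WT-2 or WT-3. The P450 sum was 54653, 74461 and 67110 in KO, against 46124, 22672 and 22678 in WT, and carried the largest part of the total. The Ugt sum was 17341, 24632 and 23001 in KO, against 12392, 5823 and 5205 in WT. In proportion the Gst sum differed least, at 16398, 19237 and 14777 in KO and 12593, 9968 and 9513 in WT. WT-1 was the highest WT library in each of these sums. In single genes the libraries did not overlap in 41 of 61 with KO higher and in 4 of 61 with KO lower, where 23.2% and 21.9% of all genes did so.

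The calls depended on single libraries. Without KO-1, limma called 22 of the 61 higher in KO (9.19% of all genes), and without WT-1 it called 41 (18.6%), with 1 gene, Sult1a1, then called lower in KO (12.2% of all genes). Without KO-2 only Cyp1b1 was called (0.0143% of all genes), and without KO-3, WT-2 or WT-3 none was (0.0143%, 0.00717% and 0% of all genes were called higher). With these 4 libraries left out in turn, 38, 43, 39 and 40 of the 61 were still higher at an unadjusted p below 0.05, against 16.5%, 19.9%, 16.9% and 17.1% of all genes. With all 6 libraries, edgeR called 31 of the 61 higher (12.1% of all genes) and DESeq2 37 (16.8%). Cyp4a12a, Gstt3, Sult1d1 and Ugt2b37 lost their call in edgeR, and Ugt2b37 also in DESeq2. Limma without its variance trend called none of the 61 (0.00717% of all genes were called higher), while 42 were higher at an unadjusted p below 0.05, against 21.3% of all genes.

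**Figure D2:**
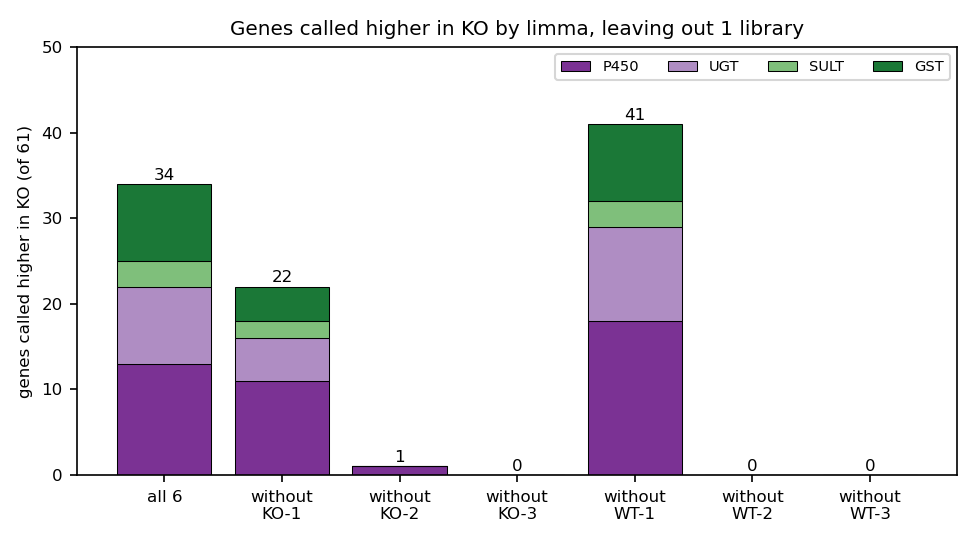
Bars give the number of the 61 genes called higher in KO by limma with all 6 libraries and with each library left out, stacked by enzyme family. The count is 34 with all libraries, 41 without WT-1, 22 without KO-1 and at most 1 without any of the other 4 libraries.

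Many genes of these families moved with the proximal tubule markers, but not all did. Of the 61, 54 had a log2 fold change above 0 and 7 below it, Gsta4 and Gstm2 among the 7. WT-1 was the highest WT library in 42 of the 61 genes and in 28 of the 34 that were called, against 37.1% of all genes tested. In 26 of the 34 called genes, WT-1 was at least 1.5 times the mean of WT-2 and WT-3. With the mean log2 level of the 24 proximal tubule markers as a covariate, the median log2 fold change of the 61 genes was 0.15. None of the 61 was called, but this fit called 0 genes among all genes tested. The loss of calls is therefore not particular to the 61. Parva, the deleted gene, lost its call as well, at a log2 fold change of -1.49 (limma adjusted p = 0.425 with the covariate). By family the medians with the covariate were 0.19 in P450, 0.16 in Ugt, 0.37 in Sult and 0.11 in Gst genes. In the 10 distal tubule and collecting duct markers the median went from 1.34 to -0.12, so the pattern is not particular to the proximal tubule. An unadjusted p below 0.05 was found in 5 genes, against 2.88% of all genes. They were Cyp1b1, Cyp2d12, Cyp2s1 and Sult1b1, higher in KO, and Cyp2j13, lower in KO. The mean of the markers did not overlap between the genotypes, nor did 22 of the 24 markers taken singly, so this fit separates marker level and genotype only in part. The standard error was larger than in the fit without the covariate in 45 of the 61 genes and smaller in 16.

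**Figure D3:**
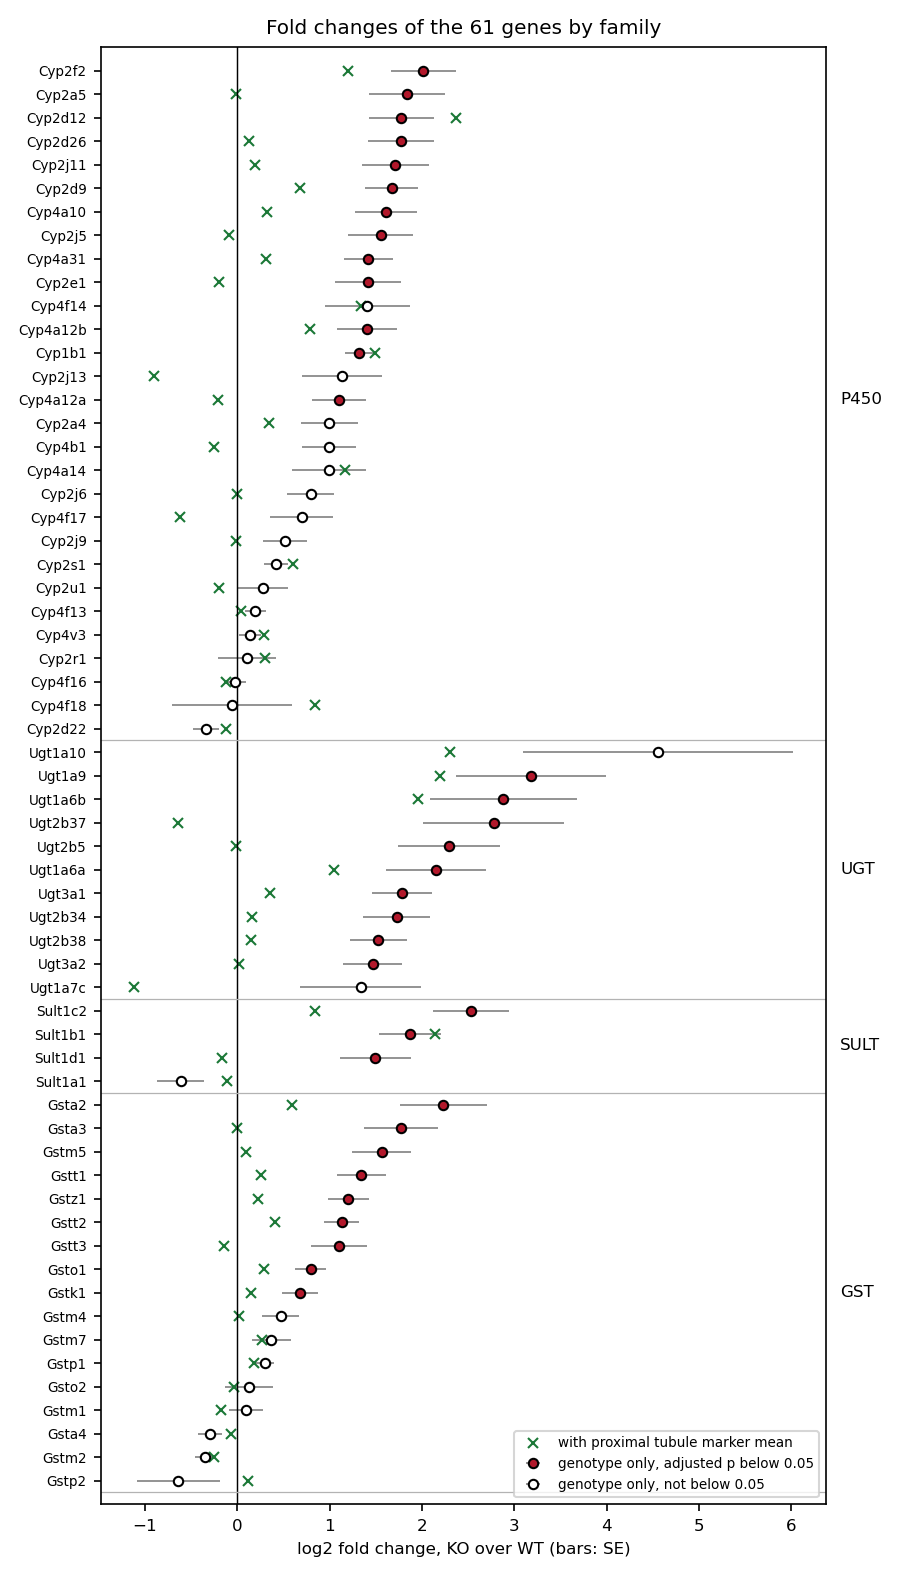
Points give the log2 fold change of each of the 61 genes, KO over WT, with its standard error, filled where the limma adjusted p is below 0.05; crosses give the value with the mean of the tubule markers as covariate. In 23 of the 34 called genes the cross lies below 0.5, while those of Cyp1b1 (1.49), Cyp2d12 (2.37) and Sult1b1 (2.14) lie at or above the points.

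Among the P450 genes, Cyp1b1 was the single Cyp1 gene over the minimum. Cyp1b1 oxidises polycyclic hydrocarbons, oestradiol and retinoids and is a known target of the aryl hydrocarbon receptor. The gene (NCBI Gene 13078, GRCm38 chromosome 17, 79706940 to 79715061) had 701, 495 and 709 normalised counts in the KO libraries 1 to 3, against 251, 244 and 255 in the WT libraries 1 to 3. All KO libraries stood above all WT libraries, and the 3 WT libraries lay close together, with WT-1 between the other ones. The mean was 635 ± 121 in KO and 250.2 ± 5.39 in WT (SD, n = 3 each), which gave a log2 fold change of 1.32 with SE 0.15 (adjusted p = 0.0286 in limma). With the tubule markers as a covariate it was 1.49 (SE 0.30, unadjusted p = 0.00165). Its adjusted p was 0.0669 without KO-3, 0.107 without WT-2 and 0.106 without WT-3. Cyp1a1, which responds to the same receptor, was below the minimum at a mean of 3.65.

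Cyp2e1, which oxidises ethanol and small solvents, had 9198, 14063 and 11062 normalised counts in KO, against 7584, 3014 and 3289 in WT. The groups did not overlap, and WT-1 was more than 2 times the other WT libraries. The log2 fold change was 1.42 (SE 0.35, limma adjusted p = 0.0345), and -0.20 with the tubule markers as a covariate. Cyp2j5, an epoxygenase of arachidonic acid that is abundant in mouse kidney, showed the same order of libraries. It had 8692, 12260 and 10939 normalised counts in KO and 6609, 2621 and 2666 in WT (log2 fold change 1.55, SE 0.36, limma adjusted p = 0.0304; -0.09 with the covariate). Cyp2j11 also rose, at 887, 1259 and 736 in KO and 509, 235 and 194 in WT (log2 fold change 1.71, SE 0.36, adjusted p = 0.0294).

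Cyp2a5, which hydroxylates coumarin and nicotine, had 1048, 1377 and 1178 normalised counts in KO, against 688, 206 and 262 in WT (log2 fold change 1.84, SE 0.41, limma adjusted p = 0.0303). The value was -0.01 with the covariate. Its neighbour Cyp2a4, a steroid hydroxylase with the near-identical promoter window printed above, had 1738, 1201 and 2553 normalised counts in KO, against 1224, 831 and 657 in WT. The groups overlapped, since KO-2 lay below WT-1, and the gene was not called (log2 fold change 0.997, SE 0.31, adjusted p = 0.0575). Of the 50-base windows of their transcripts, 37.0% in Cyp2a5 and 38.0% in Cyp2a4 occur in another gene, mostly in each other, so reads may have been split or shared between them. Cyp2a4 was chosen after its values were seen.

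In the Cyp2d cluster on chromosome 15 (82370527 to 82794452), 3 of 4 genes rose. Cyp2d12 had 423, 275 and 468 normalised counts in KO and 93.4, 76.2 and 187 in WT. Here WT-3, not WT-1, was the highest WT library, and KO-2 the lowest KO library. The log2 fold change was 1.78 (SE 0.35, limma adjusted p = 0.0286), and 2.37 with the covariate (SE 0.68, unadjusted p = 0.00963). Cyp2d26 had 959 to 1644 normalised counts in KO and 295 to 696 in WT (log2 fold change 1.78, adjusted p = 0.0286). Cyp2d9, known as a male-specific steroid hydroxylase of mouse liver and kidney, had 829 to 1410 in KO and 281 to 539 in WT (log2 fold change 1.67, adjusted p = 0.0286). At the end of the cluster, Cyp2d22 stood lower in KO without being called, at 416, 447 and 329 normalised counts in KO and 455, 503 and 547 in WT (log2 fold change -0.34, SE 0.14, adjusted p = 0.115). Cyp2d22 was chosen after its values were seen.

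Cyp2s1, an extrahepatic P450 of epithelia, had 373, 421 and 330 normalised counts in KO, against 252, 285 and 300.4 in WT. The groups did not overlap and the difference was small, a log2 fold change of 0.42 with SE 0.13 (adjusted p = 0.0556 in limma). Cyp2f2, which activates naphthalene in mouse lung, had the highest log2 fold change of the P450 genes, 2.01, at only 26.1 to 29.2 normalised counts in KO and 4.94 to 8.69 in WT. It is among the genes that reached the minimum only through KO, so its place and its call are a description, and it was named after its values were seen. The main drug-metabolising P450s of the liver were hardly counted: 0 of 9 Cyp3a rows and 0 of 14 Cyp2c rows reached the minimum, with the highest means at 2.83 in Cyp3a13 and 7.34 in Cyp2c69.

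Cyp4 enzymes hydroxylate the far end of fatty acids, and Cyp4a genes are known targets of the fatty acid receptor PPAR alpha. Of 12 Cyp4 genes, 4 were called higher, all of them Cyp4a genes, against 13.5% of all genes tested. The log2 fold change was above 0 in 10 of the 12. In 7 all KO libraries lay above all WT libraries, against 23.2% of all genes. Among the 7 is Cyp4f14, which reached the minimum only through KO. Cyp4a10 had 647, 761 and 789 normalised counts in KO, against 394, 142 and 242 in WT (log2 fold change 1.61, SE 0.33, limma adjusted p = 0.0286; 0.33 with the covariate). Cyp4a14 was low and was not called, at 59.4, 29.2 and 59.0 in KO and 25.0, 14.8 and 32.9 in WT (log2 fold change 0.99, SE 0.40, adjusted p = 0.112). KO-2 lay below WT-3 in that gene. Cyp4b1, which oxidises fatty acids and aromatic amines, was the most abundant of the 61 genes. It had 22531, 31104 and 28586 normalised counts in KO, against 21313, 11208 and 10613 in WT, with no overlap but only a narrow gap between KO-1 and WT-1. Its adjusted p of 0.0506 just missed the threshold in limma (log2 fold change 0.99, SE 0.30), and the log2 fold change was -0.25 with the covariate. Cyp4f13, Cyp4f16, Cyp4f17, Cyp4f18 and Cyp4v3 were not called and had log2 fold changes of -0.05 to 0.70. Cyp4f14 was not called either, at 10.6, 17.3 and 17.0 in KO and 4.35, 7.92 and 3.29 in WT, with no overlap (log2 fold change 1.41, adjusted p = 0.0634). Of these, Cyp4f13, Cyp4f16, Cyp4f17 and Cyp4v3 were named after their values were seen.

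**Figure D4:**
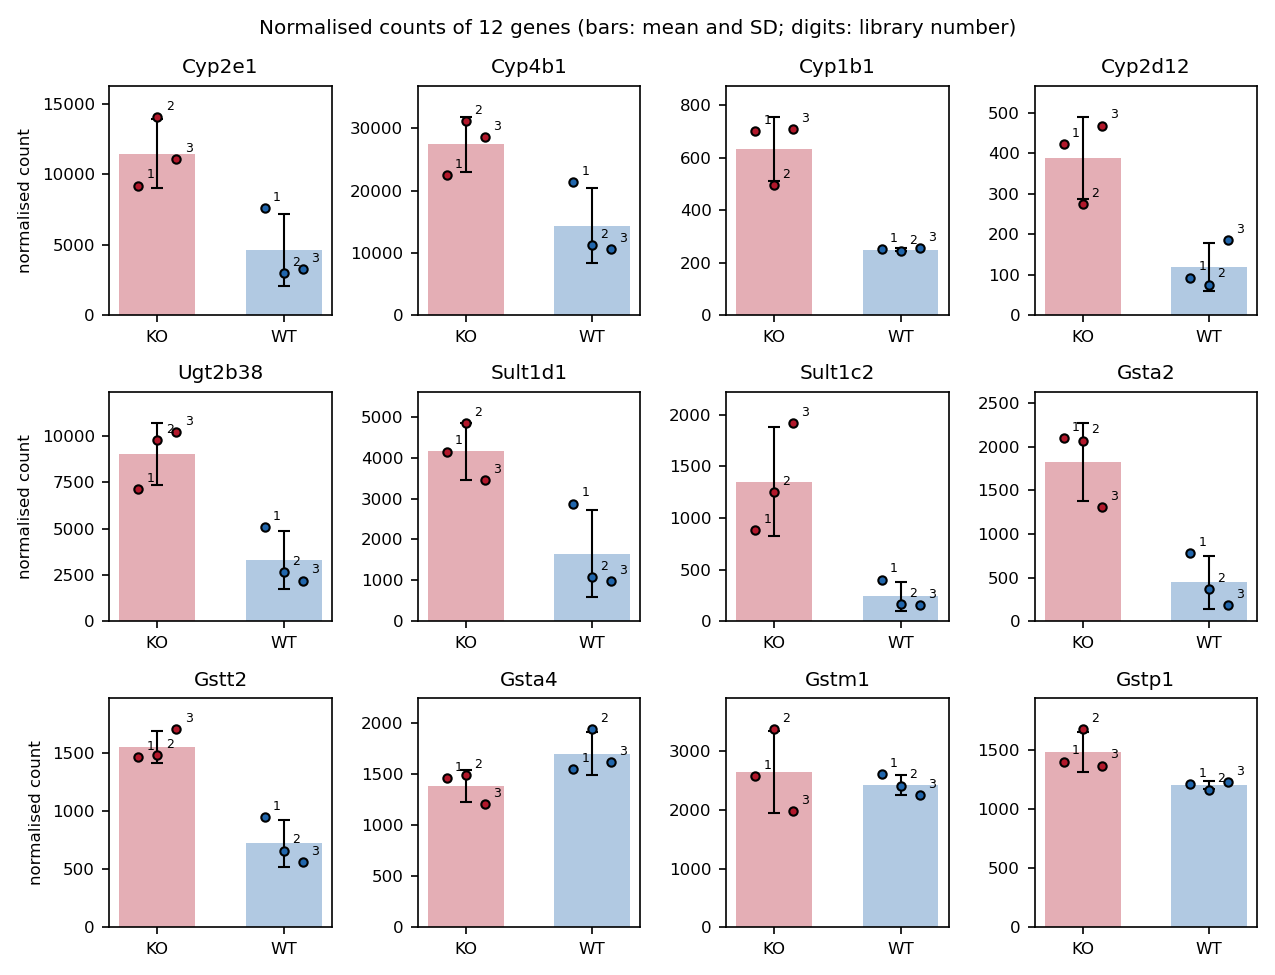
Normalised counts of 12 genes in each library, KO left and WT right in each panel, with the mean and SD as bars and the library number beside each point. WT-1 stands above the other WT libraries in genes such as Cyp2e1 (7584, against 3014 and 3289), whereas the WT points of Cyp1b1 lie together between 244 and 255.

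Among the Ugt genes, whose enzymes attach glucuronic acid or, in the Ugt3 family, other sugars, all 11 KO means were at least 2 times the WT means and 9 genes were called. Of the 9, Ugt1a6a, Ugt1a6b and Ugt1a9 reached the minimum only through KO, so these counts describe the genes tested and give no support. Of the 8 with a WT mean of at least 10, 6 were called, and with a minimum mean of 50, 5 of 7. Ugt2b38 had 7107, 9790 and 10182 normalised counts in KO, against 5086, 2649 and 2197 in WT (log2 fold change 1.53, SE 0.31, limma adjusted p = 0.0286). Ugt2b37 differed more, at 613, 977 and 1129 in KO and 476, 93.0 and 46.1 in WT. WT-1 was 6.84 times the mean of WT-2 and WT-3 in Ugt2b37, the largest such ratio of the 61 genes. Its log2 fold change was 2.78 (SE 0.76, limma adjusted p = 0.0422), with -0.64 under the covariate, and its call was lost in edgeR (adjusted p = 0.0801) and DESeq2 (adjusted p = 0.0744). Ugt2b34 had 136, 228 and 215 in KO and 96.7, 38.6 and 47.7 in WT (log2 fold change 1.73, adjusted p = 0.0289).

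Both Ugt3 genes rose. Ugt3a1, whose human counterpart uses N-acetylglucosamine, had 1506, 2360 and 1787 normalised counts in KO, against 888, 358 and 490 in WT (log2 fold change 1.78, SE 0.32, limma adjusted p = 0.0286). Ugt3a2 had 6946, 9802 and 8687 in KO and 5162, 2452 and 2218 in WT (log2 fold change 1.47, SE 0.32, adjusted p = 0.0294). In both genes KO lay above WT in every library, and WT-1 was about 2.09 and 2.21 times the mean of the other WT libraries. With the covariate their log2 fold changes were 0.36 and 0.01.

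The Ugt1a genes share their last exons on chromosome 1 (88055411 to 88220002) and differ in their first exon and promoter. Ugt1a10 had 333, 251 and 467 normalised counts in KO, against 39.1, 0 and 74.1 in WT. The 0 in WT-2 allows up to 2.97 normalised counts (3 reads) by counting error alone. Its log2 fold change of 4.56 had an SE of 1.46 and an adjusted p of 0.0614, so it was not called. The 0 weighs on this mean of logs: in edgeR its log2 fold change was 3.17. Ugt1a9 (38.98, 23.8 and 39.7 in KO, 5.43, 0 and 7.41 in WT; log2 fold change 3.18, limma adjusted p = 0.0357) and Ugt1a6b were called at low counts. Both were at 0 in WT-2 as well. In Ugt1a7c the groups overlapped, with 561, 1084 and 355 normalised counts in KO and 596, 222 and 100.4 in WT (log2 fold change 1.34, SE 0.65, adjusted p = 0.169). Between 52.1% and 79.8% of the 50-base windows of these 5 genes occur in another gene, so the division of reads among them is uncertain. The Ugt1a genes were chosen after their values were seen.

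Sulfotransferases were few. Sult1c2, a phenol sulfotransferase, had 883, 1248 and 1922 normalised counts in KO, against 404, 170 and 157 in WT. Its KO mean was 5.54 times its WT mean (log2 fold change 2.53, SE 0.41, limma adjusted p = 0.0286), and the log2 fold change was 0.84 with the covariate. Sult1d1, which sulfates dopamine and other catechols in the mouse, had 4145, 4848 and 3454 in KO and 2876, 1084 and 992 in WT (log2 fold change 1.50, SE 0.39, adjusted p = 0.0367, and 0.0571 in edgeR; -0.16 with the covariate). Sult1a1, the general phenol sulfotransferase, stood lower in KO at 205, 263 and 271, against 281, 561 and 333 in WT, and was not called (log2 fold change -0.61, SE 0.26, adjusted p = 0.121). Without WT-1 the adjusted p of Sult1a1 was 0.0364. Sult1b1, which sulfates thyroid hormone, had 34.6, 50.9 and 28.3 in KO and 7.60, 10.9 and 9.88 in WT, with a log2 fold change of 1.87 (adjusted p = 0.0286) and 2.14 under the covariate. Sult1b1 reached the minimum only through KO and was chosen after its values were seen.

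Glutathione transferases fall into classes by sequence. The alpha class genes Gsta2 and Gsta3 rose. Gsta2 had 2097, 2069 and 1305 normalised counts in KO, against 780, 366 and 190 in WT (log2 fold change 2.23, SE 0.47, limma adjusted p = 0.0289; 0.59 with the covariate). Of the 50-base windows of the Gsta2 transcripts, 49.8% occur in another gene, most often Gm10639, so its reads may have been split or shared. Gsta3 had 835, 950 and 807 in KO and 524, 164 and 185 in WT (log2 fold change 1.77, SE 0.40, adjusted p = 0.0304). Gsta4, which conjugates the lipid aldehyde hydroxynonenal and lies next to Gsta2 on chromosome 9, was not called. It had 1464, 1488 and 1204 in KO, against 1546, 1944 and 1614 in WT, all KO libraries below all WT libraries (log2 fold change -0.30, SE 0.13, adjusted p = 0.127).

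All 3 theta class genes rose. Gstt1, which acts on small halogenated compounds, had 1072, 1479 and 976 normalised counts in KO, against 680, 351 and 397 in WT (log2 fold change 1.34, SE 0.27, limma adjusted p = 0.0286). Gstt2 had 1467, 1486 and 1711 in KO and 949, 662 and 562 in WT (log2 fold change 1.13, SE 0.19, adjusted p = 0.0286). Gstz1, the maleylacetoacetate isomerase of tyrosine breakdown, had 2110, 2570 and 2118 in KO and 1423, 826 and 804 in WT (log2 fold change 1.20, SE 0.22, adjusted p = 0.0286). Gstp1, the pi class enzyme, differed by little, at 1402, 1680 and 1369 in KO and 1216, 1166 and 1229 in WT (log2 fold change 0.30, SE 0.10, adjusted p = 0.0731).

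In the mu class, 1 of 5 neighbouring genes on chromosome 3 (107895854 to 108045179) was called, near the 22.1% of all genes called in either direction. Gstm5 had 783, 1159 and 1179 normalised counts in KO, against 580, 261 and 272 in WT (log2 fold change 1.56, SE 0.32, limma adjusted p = 0.0286; 0.09 with the covariate). Gstm1, the most abundant Gst gene, had 2580, 3378 and 1981 in KO and 2605, 2412 and 2255 in WT, and the groups overlapped. Its log2 fold change was 0.09 with a 95% interval of -0.34 to 0.53 (adjusted p = 0.734). Gstm2 stood lower in KO, at 811, 825 and 677, against 946, 931 and 1057 in WT (log2 fold change -0.35, SE 0.11, adjusted p = 0.0577). It was called lower when the libraries were scaled to their upper quartile (adjusted p = 0.0410; 11% of all genes were then called lower). Gstm2 was chosen after its values were seen.

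**Figure D5:**
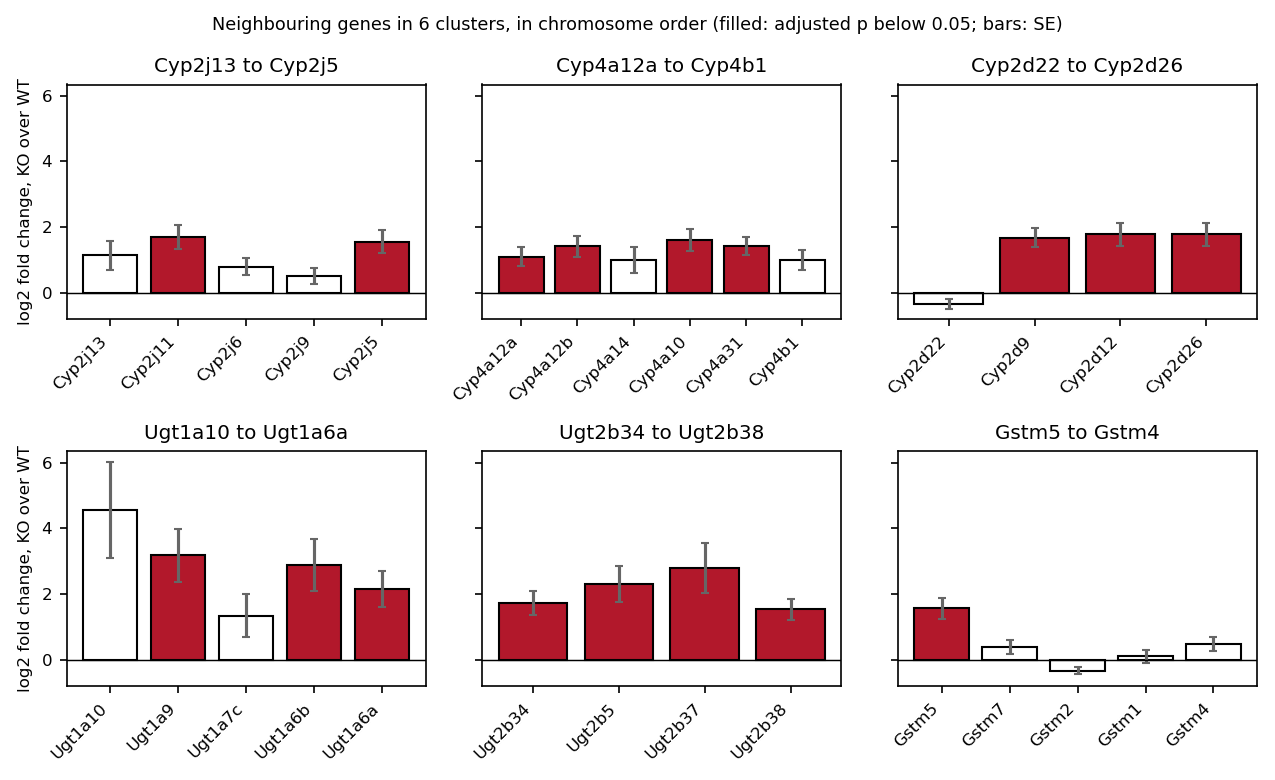
Bars give log2 fold changes, KO over WT, of neighbouring genes in 6 clusters, in chromosome order, with standard errors. Filled bars have a limma adjusted p below 0.05. All 4 Ugt2b genes are filled, while Gstm2 (-0.35) and Cyp2d22 (-0.34) lie below 0 in clusters that also hold called genes.

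Most of these genes lie side by side: 50 of the 61 fall into 14 clusters of genes of the same family less than 1 Mb apart. Whole clusters rose for Ugt2b on chromosome 5 (4 of 4, Ugt2b37 in limma alone), Gstt on chromosome 10 (3 of 3, Gstt3 not in edgeR) and Ugt3a on chromosome 15 (2 of 2). Sult1b1 and Sult1d1 on chromosome 5 were also both called, Sult1d1 not in edgeR. Sult1b1 reached the minimum only through KO, so the count for this pair is a description. Within the Cyp4a cluster on chromosome 4, which ends in Cyp4b1, 4 of 6 genes were called higher, and in the Cyp2j cluster 2 of 5. All 6 and all 5 had log2 fold changes above 0, at 0.99 to 1.61 and 0.52 to 1.71. No gene of the Cyp4f cluster on chromosome 17 was called (0 of 4), and 3 of the 4 were above 0. Beside these cluster counts, 13.5% of all genes tested were called higher. Reads can be shared inside such clusters: in 21 of the 61 genes more than 10% of the 50-base windows of the transcripts occur in another gene, and in 14 none does. Cyp1b1 is among those with none. The share was 37.4% in Ugt2b38, 33.7% in Gstp1 and 29.8% in Cyp4a10, so the same limit holds for these genes.

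Per kilobase of exon, Cyp4b1 had the highest level, 12149 normalised counts in KO and 6373 in WT. It was followed by Cyp2e1 at 5302 in KO and 2145 in WT, Ugt2b38 at 4773 and 1751, Cyp2j5 at 4533 and 1691, and Ugt3a2 at 2733 and 1057, each with KO before WT. Gstm1 and Gsta4 came next, at 1797 and 1094 in KO and 1646 and 1344 in WT. The 5 most abundant genes (Cyp4b1, Cyp2e1, Cyp2j5, Ugt2b38 and Ugt3a2) held 60.0% of the normalised counts of the 61.

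Genes that supply or carry on these reactions were read from the same fit. Beside the counts of these lists, 13.5% of all genes tested were called higher in KO and 8.58% lower. Of 7 genes of electron supply, 3 rose and none fell. Por, the reductase that feeds all microsomal P450s, had 1962, 2675 and 2708 normalised counts in KO, against 1747, 1162 and 1078 in WT (log2 fold change 0.90, SE 0.21, limma adjusted p = 0.0305; 0.00 with the tubule markers as a covariate). Cyb5a and Cyb5b, 2 cytochromes b5, rose by log2 fold changes of 0.90 and 0.57. Of 15 genes that make or recycle the cofactors, 12 rose and none fell. Papss2, which makes the sulfate donor, had 1829, 2370 and 1525 in KO and 909, 362 and 370 in WT (log2 fold change 1.92, adjusted p = 0.0286). Gsr, glutathione reductase, had a log2 fold change of 1.01, and the dipeptidase Dpep1 1.50. The median log2 fold change was 0.24 in the electron supply genes and 1.01 in the cofactor genes. With the covariate these medians were -0.005 and 0.017. WT-1 was the highest WT library in 15 of the 15 cofactor genes.

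Of 16 other oxidising and conjugating enzymes tested, 11 rose and none fell, with 3 flavin monooxygenases at log2 fold changes of 0.99 in Fmo1, 1.81 in Fmo2 and 1.55 in Fmo4 (adjusted p = 0.0286 each in limma). Of 9 efflux transporters, 5 rose and none fell. Abcc2, an apical exporter of glucuronide and glutathione conjugates, had 1014, 1111 and 1146 normalised counts in KO, against 332, 214 and 317 in WT. Its libraries were tight within KO, and the log2 fold change was 1.94 (SE 0.17, adjusted p = 0.0198), with 1.50 under the covariate. Abcb1b and Abcc4 rose by log2 fold changes of 1.22 and 0.69. The median log2 fold change was 1.06 in the 16 other enzymes and 0.69 in the 9 transporters. With the covariate these medians were 0.079 and 0.20.

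Of 10 regulators tested, 5 rose and 1 fell. Their median log2 fold change was 0.65, and -0.042 with the covariate. Nr1i2, the pregnane X receptor that switches on P450, Ugt and transporter genes in response to drugs, was low in all libraries, at 38.1, 28.2 and 66.9 normalised counts in KO and 7.60, 9.90 and 9.88 in WT. Its log2 fold change was 2.08 (SE 0.38, limma adjusted p = 0.0286), and 2.53 with the covariate. All WT values of Nr1i2 were below 10, so it reached the minimum mean of 10 only through KO. Its call and its place among the 5 are therefore a description. Ppargc1a, a coactivator of mitochondrial genes, rose by a log2 fold change of 1.04. Ahr, the aryl hydrocarbon receptor, was the gene that fell, at 232, 238 and 255 in KO and 334, 357 and 305 in WT (log2 fold change -0.45, SE 0.11, adjusted p = 0.0330), and it was named after its values were seen. The stress regulator Nfe2l2 and its partner Keap1 were not called, at log2 fold changes of -0.03 and -0.06, and were also picked with their values known.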

How the data were processed

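The labels give a directional library kit and a separate title per mouse, and p-values measure the spread between these mice. The submitters' processing notes list mm10 as the build, with bcl2fastq 2.19, cutadapt 1.16.5, HISAT2 2.1, featureCounts 1.6.4 and, for DESeq2, a wrapper version of 2.11.40.6. Strand setting and handling of multiply mapped reads: not given in the sources used here. Reads of near-identical, overlapping or antisense genes therefore cannot be told apart. The deposited table holds a signal per gene and library, normalised counts that the authors made by dividing reads by a size factor, per the file headers and the values. After division by the step of a library, 100% of values were whole at a tolerance of 0.01, which gave 11886828 to 20552984 reads per library. Symbols came from a RefSeq gene table (25275 identifiers) and otherwise from GENCODE M21 (25293 of 27179 in all).

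Genotypes were compared with limma 3.58.1 (R 4.3.3), using a variance trend, on log2(normalised count + 1). The fit covered 13946 genes with a mean of at least 10, with Benjamini-Hochberg adjustment over all of them, a two-sided threshold of 0.05 and genotype as its sole term. Fold changes are on the log2(normalised count + 1) scale: the pseudocount draws those of low genes towards 0, but a library at 0 weighs more than in a ratio of means. Alternatives were edgeR 4.0.16 or DESeq2 1.42.0 on whole reads, other scalings, pseudocounts and filters, a replicate block, limma without trend or with a robust prior, the mean of the tubule markers as covariate, and each library left out. Running edgeR without each library was added after seeing the data. The steps were tested on simulated data. Libraries of a genotype differed by more than counting noise (chi-square divided by its degrees of freedom was 23.4 or more).

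The genes and lists were chosen with earlier results of these data known. Named are up to 6 called genes per family with a mean of at least 50 and the largest log2 changes, any called lower, the 3 most abundant per family, and 12 genes picked for known roles (Cyp1a1, Cyp1b1, Cyp2e1, Cyp2j5, Cyp2s1, Cyp4a10, Cyp4a14, Cyp4b1, Gsta4, Gstm1, Gstp1 and Gstt1). The rule adds the 2 nearest to the minimum on each side, up to 3 called genes with the smallest adjusted p per list of supporting genes, and Parva. A result that the rule names is not reported here. Other genes, such as those of whole clusters or near-identical copies, were chosen after their values were seen.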

Additional observations from a re-analysis of the deposited data

How the results depend on the processing

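None of the 61 genes changed sign under TMM or upper quartile scaling, the other pseudocounts, edgeR or DESeq2. The deposited scaling gave 3085 calls over all genes in limma, edgeR 2841 and DESeq2 3810. Same-numbered KO and WT libraries did not deviate together (correlations of -0.23, -0.19 and -0.01), and no KO library correlated best with its own number. With the replicate block 0 genes were called, with 4284 at an unadjusted p below 0.05. Without the variance trend 1 gene was called, none of the 61 (5305 at an unadjusted p below 0.05). With the tubule marker covariate the count was 0 (401 at an unadjusted p below 0.05). A minimum mean of 50 left 5 called Ugt genes, since fewer Ugt genes were then tested. With 1 library left out, limma called 0 to 4294 genes, and 0 to 18 P450, 0 to 11 Ugt, 0 to 3 Sult and 0 to 9 Gst genes higher. With 1 library left out, edgeR called 0 to 4307 genes, and without KO-1 it called 1186, where 6 P450, 3 Ugt and 3 Gst genes were higher. Of 43 genes named by the rule with a test, supporting genes included, 35 lost their call in limma without KO-2, 36 without KO-3, 35 without WT-2 and 36 without WT-3. The single gene called lower was Gstm2 with upper quartile scaling (1 gene) and Sult1a1 without WT-1 (1 gene, also in edgeR). The covariate turned the log2 fold change to -0.014 in Cyp2a5, -0.25 in Cyp4b1, -0.20 in Cyp2e1, -0.090 in Cyp2j5, -0.64 in Ugt2b37, -0.16 in Sult1d1, -0.0070 in Gsta3, -0.18 in Gstm1 and -0.051 in Cyb5a. Without 1 library, Gstm1 ranged from -0.0981 (without KO-2; -0.0874 in edgeR) to 0.29 (without KO-3; 0.30 in edgeR). The cause of these changes was not tested. Depth limits the low genes: Ugt1a9, Ugt1a6b and Ugt1a10 had 0 reads in WT-2, and a floor of 3 reads is worth 2.47 to 3.40 normalised counts.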
